A study of Schizosaccharomyces pombe with 7 samples.

Results

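The stretch described here covers the meiotic gene mei4 and its neighbour act1 on the left arm of chromosome 2 of the fission yeast Schizosaccharomyces pombe. Its members are all probes of the tiling array that are not controls and start between 1470000 and 1481000 on chromosome 2 in the array's own coordinates. There are 37 such probes among 41551. They were chosen by position and not by signal. Going along the array, 5 probes lie in wdr8, 8 in cdk9, 8 in mei4 (1473900 to 1476060), 6 in act1 (1476600 to 1478160) and 7 in mok12, and 3 lie between genes.

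H3K9me2, dimethylation of lysine 9 of histone H3, was measured by ChIP on 2-colour arrays of 60-base probes placed every 300 bp, with ChIP DNA in Cy5 and whole-cell extract DNA in Cy3. The groups were wild type (WT, 3 arrays, series 1, 2 and 3), a strain with the fft3_delta genotype (written fft3∆, 2 arrays, series 2 and 3) and a strain labelled UV21 (1 array, series 1), whose genotype the labels give by that name alone. Fft3-GFP, the chromatin remodeller Fft3 joined to green fluorescent protein, was pulled down with a GFP antibody on 1 further array, labelled WT. All cells grew in rich medium at 30 °C and were fixed in 3% paraformaldehyde, except that the Fft3-GFP cells were first held at 18 °C for 6 h and later treated with 10 mM dimethyl adipimidate, a second cross-linker. Nothing in the labels says whether the arrays of a group came from separate cultures, so p-values measure the spread between these arrays only.

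In fission yeast, H3K9me2 marks heterochromatin and is laid down by a single methyltransferase, Clr4. Besides the centromeres, telomeres and the mating-type region, it forms small islands over some meiotic genes in growing cells. At several of these, mei4 among them, the RNA-binding protein Mmi1 recognises short hexamers in the transcript and marks it for removal by the nuclear exosome, and the same pathway brings H3K9 methylation to the gene. Mei4 is a forkhead transcription factor that turns on genes of the middle phase of meiosis. Act1 is the only actin of the cell and is transcribed at a high rate during growth. Fft3 is a remodeller of the Fun30 (SMARCAD1) family known for a role in the inheritance of heterochromatin.

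In the RefSeq annotation of assembly ASM294v3, mei4 (SPBC32H8.11) is read from the plus strand and its 1554 coding bases form 1 exon. Act1 (SPBC32H8.12c) is read from the minus strand, so that the 3′ ends of both genes face each other. Cdk9 (SPBC32H8.10), the kinase of the elongation factor P-TEFb, lies upstream of mei4 on the plus strand. Mok12 (SPBC32H8.13c), of the alpha-glucan synthase family, lies beyond the start of act1. No label or header names the build of the array's coordinates, so genes were placed on the array by matching GC content to Cy3 signal, with a shift of 820 bp around mei4 (correlation 0.287, and at most 0.159 at shifts over 1000 bp away). With this shift, the 8 mei4 probes fall 1 in the 5′ UTR, which overlaps the 3′ UTR of cdk9, 5 in coding sequence and 2 in the 3′ UTR. The 3 act1 probes at 1477200, 1477500 and 1477800 are coding, those at 1476600 and 1476900 lie in its 3′ UTR and that at 1478100 in its 5′ UTR. The probe at 1476300, counted here as between genes, also falls in the act1 3′ UTR under this shift. Under the shift of 870 bp that suits the whole chromosome arm, the act1 probe at 1478100 becomes coding, and those at 1473900 and 1476300 straddle the ends of the mei4 and act1 transcripts.

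The stretch of mei4 coding sequence with the most Mmi1 hexamers is shown because mei4 RNA is bound through them. It is also shown because the mean WT profile of H3K9me2 was highest at the probe over its end (1474800). That mean was 5.10 (SD 0.23), against 4.98 (SD 0.28) at 1475400, on coding base 1417 under the local shift and past the stretch. Both means include a saturated value, so the top of the profile was not resolved between these probes. The hexamer is UNAAAC in RNA, where N is any base, and TNAAAC in the DNA of the sense strand. The sequence runs from coding base 532 to 818 (chromosome II, plus strand, ASM294v3, RefSeq), 287 bases from 5′ to 3′, and the capitals mark the hexamers.
mei4: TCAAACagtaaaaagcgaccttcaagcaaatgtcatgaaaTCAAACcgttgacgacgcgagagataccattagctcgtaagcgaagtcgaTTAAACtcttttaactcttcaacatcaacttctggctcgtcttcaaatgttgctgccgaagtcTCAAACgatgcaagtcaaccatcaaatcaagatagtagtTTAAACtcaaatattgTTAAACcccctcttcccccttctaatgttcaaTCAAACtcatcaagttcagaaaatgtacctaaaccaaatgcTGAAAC
It holds 8 of the 10 sense hexamers of the mei4 coding sequence, and none of them overlaps another. The reverse complement, GTTTNA, occurs 5 times in the coding sequence. The act1 coding sequence has 1 sense hexamer in 1128 bases and no reverse complement. Of 4912 coding sequences of at least 300 bases, 80.5% hold at least 1 sense hexamer and 79.7% at least 1 reverse complement, while 0.0407% have at least 8 sense hexamers within 300 bases, namely mei4 and mug8. The middle of the array probe at 1474800 falls on coding base 817 under the local shift and on base 767 under the shift of the whole arm, inside this stretch under both; the probe was chosen for its WT height, so its place is a description. A match of letters is a description and does not show binding.

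Values below are log2 ratios of the processed ChIP (Cy5) to the processed extract (Cy3) signal, centred on the array's median, so that 0 is the median probe and 1 is a ratio 2 times as high. Of the 37 probes, 29 entered the tests. The 8 others were non-uniform spots on at least 1 H3K9me2 array, 6 of them on WT series 3 and 3 on fft3∆ series 3, and their values are given without a test. On WT series 3 the Cy5 signal of 4 mei4 probes (1474500 to 1475400) was saturated, so their values there are lower bounds. Cy3 over the fft3 gene itself was 0.304% and 0.383% of the array median on the fft3∆ arrays and 55.0% to 84.5% on the other 5.

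**Figure D1:**
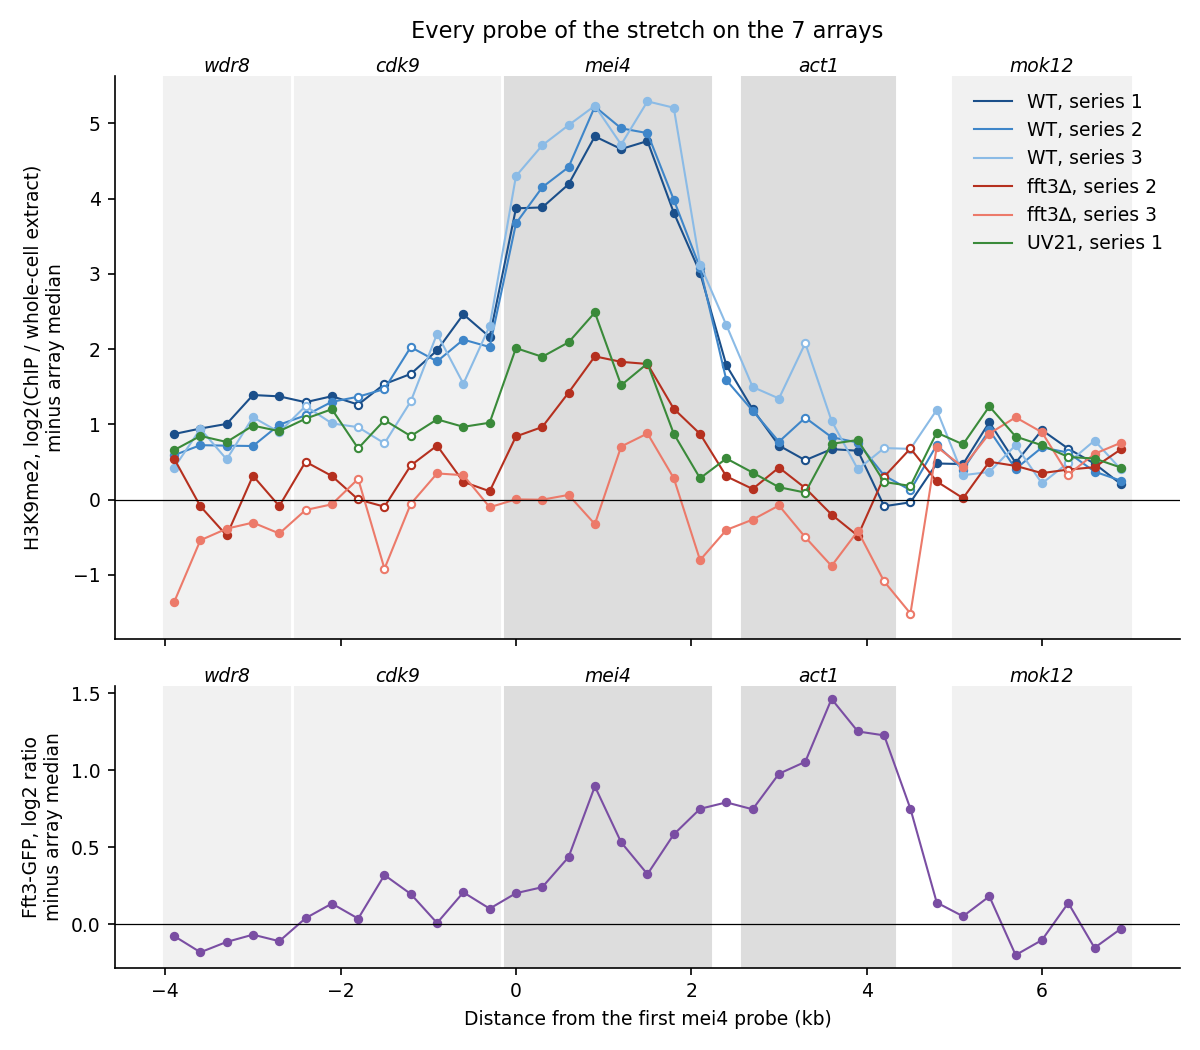
Centred log2 ratio, ChIP over whole-cell extract (y), against distance from the first mei4 probe in kb (x), for the 6 H3K9me2 arrays (top) and the Fft3-GFP array (bottom). Each point is 1 probe, open points were left out of the tests, and shaded bars mark the probed extent of each gene; the 3 WT arrays form a plateau of 3.02 to 5.29 over mei4, where the fft3∆ and UV21 arrays lie at 2.49 or lower, and Fft3-GFP is highest over act1.

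In WT cells mei4 carried a high and sharp H3K9me2 island. The mean of its 8 probes was 4.13 in series 1, 4.29 in series 2 and 4.70 in series 3 (4.37 ± 0.292, SD, n = 3), the 30th highest of 4713 genes. Every mei4 probe on every WT array read between 3.02 and 5.29. The highest mei4 probe was that at 1474800 in series 1 (4.83) and series 2 (5.22). In series 3 it was that at 1475400 (5.29), which was saturated, as was 1474800 (5.24).

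The left side of the WT island was a slope followed by a step. Over wdr8, which encodes a WD-repeat protein, the WT values were 0.42 to 1.39. Over cdk9 they rose toward mei4, from 1.37, 1.30 and 1.01 at 1471800 to 2.16, 2.03 and 2.31 at 1473600. At the next probe, 1473900, the first of mei4, they were 3.87, 3.67 and 4.30. So the cdk9 side carried H3K9me2 well over the array median across the coding region of cdk9, and the largest step between neighbouring tested probes on this side lay at the border of cdk9 and mei4.

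The right side fell within the convergent 3′ ends of mei4 and act1. In series 1, 2 and 3 the values were 3.81, 3.99 and 5.21 at 1475700, and 3.02, 3.08 and 3.12 at 1476000, the last mei4 probe. At 1476300, between the genes, they were 1.79, 1.59 and 2.32. The drop thus ran through the 3′ ends of both genes. At 1476600, the first act1 probe, they were 1.20, 1.18 and 1.5. At 1476900 they were 0.72, 0.77 and 1.34, and in the act1 coding region at 1477500 they were 0.67, 0.83 and 1.05. From 1475700 to 1476900 the values fell by 3.10, 3.22 and 3.87 on the 3 WT arrays. Mei4 exceeded act1 by 3.32, 3.41 and 3.62 on these arrays (3.45 ± 0.156, SD, n = 3).

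The edges of the island were set on each array by walking outward from the highest mei4 probe until 2 successive measured probes were under 1. The edge is the last probe at or above 1. On WT series 1 the island ran from 1470600 to 1476600 and on WT series 2 from 1471800 to 1476600, so that both ended at the first act1 probe, in its 3′ UTR. On WT series 3 it ran from 1470900 to 1478700. There, 3 of its probes from act1 to the gap before mok12 (1477200, 1478100 and 1478400) were non-uniform and skipped. The walk skipped these 3 probes on every array, though 1477200 read 1.09 on WT series 2. With 1 probe under the threshold ending the walk, the right edge on WT series 3 was 1477500, inside act1. With non-uniform spots kept, the right edge was 1477200 on WT series 2 and 1477500 on WT series 3, both inside act1. On fft3∆ series 2 the island ran from 1474500 to 1475700, within mei4, and on UV21 from 1471800 to 1475400, ending before the last 2 mei4 probes. No mei4 probe reached 1 on fft3∆ series 3 or on the Fft3-GFP array. Edges cannot be finer than the 300 bp spacing, and fragments of 500 to 1000 bp blur them.

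In fft3∆ cells the mei4 island was lower on both arrays. The mei4 mean was 1.36 in series 2 and 0.10 in series 3, against 4.13 or more in WT, and the groups did not overlap at any of the 8 probes, as was the case for 23.9% of all tested probes. Mei4 fell by 3.64 on the log2 scale (SE 0.36, 12.5 times lower, limma over all 6 H3K9me2 arrays, adjusted p = 0.00457), the 6th largest fall among 4713 genes, of which 6.17% passed as lower and 0.0637% as higher. In a culture measured as a whole, fewer cells with the mark and less of the mark per cell cannot be told apart. Within series 2 the difference between fft3∆ and WT was -2.94 and within series 3 it was -4.60. An exact two-sided permutation test over arrays gave p = 0.2, the smallest that 3 arrays against 2 can give.

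The fft3∆ arrays also differed from each other. In series 2 mei4 kept a low rise, from 0.84 at 1473900 to 1.90 at 1474800 and back to 0.87 at 1476000, in the same place as the WT peak. In series 3 the mei4 probes lay between -0.80 and 0.88, with the highest 2 at 1475100 (0.71) and 1475400 (0.88). Leaving out either fft3∆ array moved the mei4 difference to -4.27 (without series 2) or -3.02 (without series 3). Without WT series 3, the array with saturated mei4 probes, it was -3.48, and over the fits that leave out 1 WT array the adjusted p was 0.0079 to 0.044.

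Act1 carried a low level of H3K9me2 in WT and less in fft3∆. Its mean over 4 tested probes was 0.81, 0.88 and 1.07 in WT (0.92 ± 0.136, SD, n = 3), and -0.03 and -0.41 in fft3∆. Act1 fell by 1.14 (SE 0.18, 2.21 times lower, adjusted p = 0.0159). The difference was -0.91 within series 2 and -1.48 within series 3. The call rests on all 3 WT arrays, since the adjusted p was 0.0629, 0.0613 and 0.0805 without WT series 1, 2 and 3. All 4 tested probes were lower on both fft3∆ arrays than on every WT array, as were 23.9% of all tested probes. Their mean differences were -0.77 to -1.39, and none passed alone, with a smallest adjusted p of 0.0523 at 1476600. The left-out probe at 1477200 was also lower on both fft3∆ arrays. At the left-out probe 1478100, near the start of act1, the groups overlapped. There WT read -0.09, 0.32 and 0.68, and fft3∆ read 0.30 in series 2 and -1.09 in series 3. In fft3∆ mei4 exceeded act1 by 1.38 and 0.51 (0.948 ± 0.617, SD, n = 2), less than on any WT array (exact permutation p = 0.2, again the smallest possible).

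**Figure D2:**
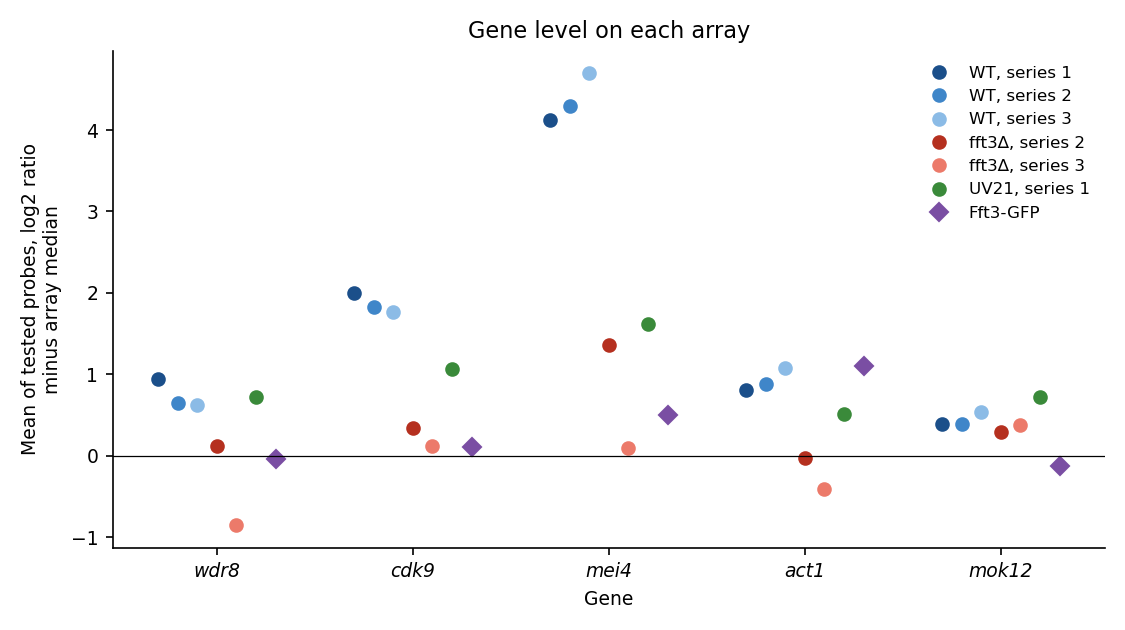
Mean log2 ratio over the tested probes of each gene, minus the array median (y), for the 5 genes of the stretch (x) and each of the 7 arrays, 1 point per array with no error bars. At mei4 the WT arrays read 4.13 to 4.70 and the fft3∆ arrays 1.36 and 0.10; at mok12 all 6 H3K9me2 arrays lie between 0.30 and 0.72.

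The fall in fft3∆ was also found in cdk9 and was not detected in mok12. Cdk9 read 2.0, 1.82 and 1.77 in WT and 0.34 and 0.13 in fft3∆, and fell by 1.63 (SE 0.16, 4 tested probes, adjusted p = 0.00457). Wdr8, over its 7 probes, read 0.95, 0.65 and 0.62 in WT and 0.12 and -0.85 in fft3∆. This difference of -1.10 did not pass (adjusted p = 0.0845), but did with series as a replicate block (adjusted p = 0.0288). It was -1.59 without fft3∆ series 2 and -0.62 without fft3∆ series 3. Mok12, over 26 tested probes, read 0.39, 0.39 and 0.53 in WT and 0.30 and 0.37 in fft3∆, a difference of -0.10 (95% interval -0.45 to 0.25, adjusted p = 0.776). Over all genes the median difference was -0.11. In windows of 2 kb, which need no placement of genes, 4 of the 6 that begin in the stretch passed as lower, against 5.29% of 6143 windows (0.0977% higher). They were the 4 from 1470000 to 1477999, with differences of -1.15, -2.23, -3.76 and -1.59, and without WT series 3 there were 2.

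Probe by probe, 12 of the 29 tested probes passed as lower in fft3∆ and none as higher, against 2.19% and 0.0356% of all 33704 tested probes. The 12 were all 8 of mei4, 3 of the 4 tested in cdk9 (1473000, 1473300 and 1473600) and the one at 1476300 between mei4 and act1. None of the 5 in wdr8, the 4 counted in act1 or the 6 in mok12 passed, though the probe at 1476300 falls in the act1 3′ UTR under the local shift. The count of 12 fell to 0 without WT series 1, without WT series 3 and with the pericentromeric means set equal, and to 8 without WT series 2. Fits that leave 1 fft3∆ array take their spread from the WT arrays alone, so their counts are not given here. Those counts enter only the ranges over the fits without 1 array, in the last section. The probe with the largest change, at 1474800, fell by 4.31 (SE 0.59, adjusted p = 0.0308). Its WT series 3 value is one of the 4 saturated ones, so this size and rank rest on a lower bound there. The probe with the smallest change within mei4, at 1476000, fell by 3.04. Both fft3∆ arrays lay below every WT array at 21 of 29 tested probes, against 23.9% of all tested probes, and at 6 of the 8 probes left out.

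**Figure D3:**
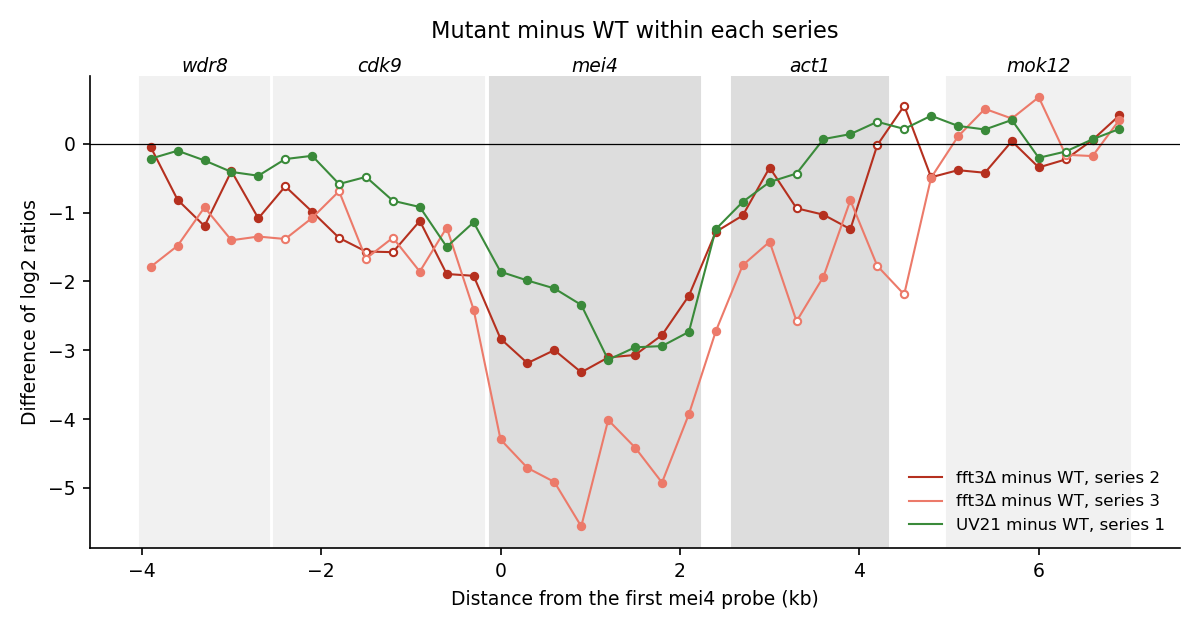
Difference of log2 ratios between mutant and WT arrays of the same series (y) against distance from the first mei4 probe in kb (x), 1 line per series and open points for probes left out of the tests. The mei4 means of the 3 lines are -2.94, -4.60 and -2.51, and over mok12 the lines scatter around 0.

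On the UV21 array mei4 was also low, while wdr8 read close to the WT mean, with a difference of -0.02 (95% interval -0.88 to 0.84). UV21 mei4 read 1.62, and all 8 of its probes lay below every WT array, as did 23% of all tested probes. This was a difference of -2.75 (SE 0.46, 6.73 times lower). It did not pass over all genes (unadjusted p = 0.00054, adjusted p = 0.172). Within series 1 the difference was -2.51. With series as a replicate block it was -2.51 with adjusted p = 0.000588, in a fit with 1 residual degree of freedom. Without either fft3∆ array the difference stayed at -2.75, and the spread then came from the WT arrays alone. No gene and no probe passed for UV21 in limma (0% of 4713 and 0% of 33704), while 13 of the 29 probes had an unadjusted p under 0.05 and were lower, against 2.36% of all probes. The single UV21 array has no replicate, and the main fit takes its spread from the WT and fft3∆ arrays.

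UV21 differed from WT by an amount that changed along the stretch. At wdr8 it read 0.72 against a WT mean of 0.74, and at 1471800 in cdk9 it read 1.20 against 1.23. At 1473600, at the end of cdk9, it read 1.02 against 2.17. Within mei4 its first 4 probes averaged 2.12 and its last 4 averaged 1.12, a difference of 1.0 chosen after the values were seen. The same difference was 0.13, 0.15 and 0.22 on the WT arrays and -0.15 and -0.33 on the fft3∆ arrays. In act1 the 3′ UTR probes at 1476600 and 1476900 read 0.36 and 0.16, below every WT array. The coding probe at 1477200, which was left out of the tests, was below them too, at 0.093 against 0.52, 1.09 and 2.08 in WT. The other coding probes, at 1477500 and 1477800, read 0.74 and 0.79, inside or above the WT range. The act1 mean of 0.51 differed from WT by -0.41 (95% interval -0.95 to 0.13, adjusted p = 0.999).

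The fft3∆ and UV21 strains were not told apart at either gene. For mei4 the difference between fft3∆ and UV21 was -0.89 (95% interval -2.05 to 0.26, adjusted p = 0.505) and for act1 it was -0.73 (-1.31 to -0.16, adjusted p = 0.237). Without fft3∆ series 2 the differences were -1.52 for mei4 and -0.93 for act1. That fit sets 1 fft3∆ array against 1 UV21 array and takes its spread from the WT arrays alone. For cdk9, where UV21 read 1.06, the difference was -0.83 (adjusted p = 0.126).

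The input channel at mei4 was higher on the fft3∆, UV21 and Fft3-GFP arrays than on the WT H3K9me2 arrays. Cy3, the whole-cell extract, over the 8 mei4 probes was -0.03, 0.05 and -0.38 relative to the array median in WT series 1, 2 and 3, 0.62 and 0.67 in fft3∆ series 2 and 3, and 0.31 in UV21. So Cy3 was higher in fft3∆ than in WT by 0.76, by 0.57 within series 2 and by 1.05 within series 3. On the Fft3-GFP array, labelled WT, it was 0.39, above UV21 and every WT H3K9me2 array. Cy5, the ChIP, was 4.04, 4.26 and 4.27 in WT, 1.97 and 0.78 in fft3∆ and 1.93 in UV21. The Cy5 signal alone fell by 2.82. Over the 6 act1 probes Cy3 differed by -0.03 between fft3∆ and WT and Cy5 by -1.08. The ratio at mei4 therefore fell through both channels, mostly through the ChIP, and the part of the extract in it was not tested further.

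**Figure D4:**
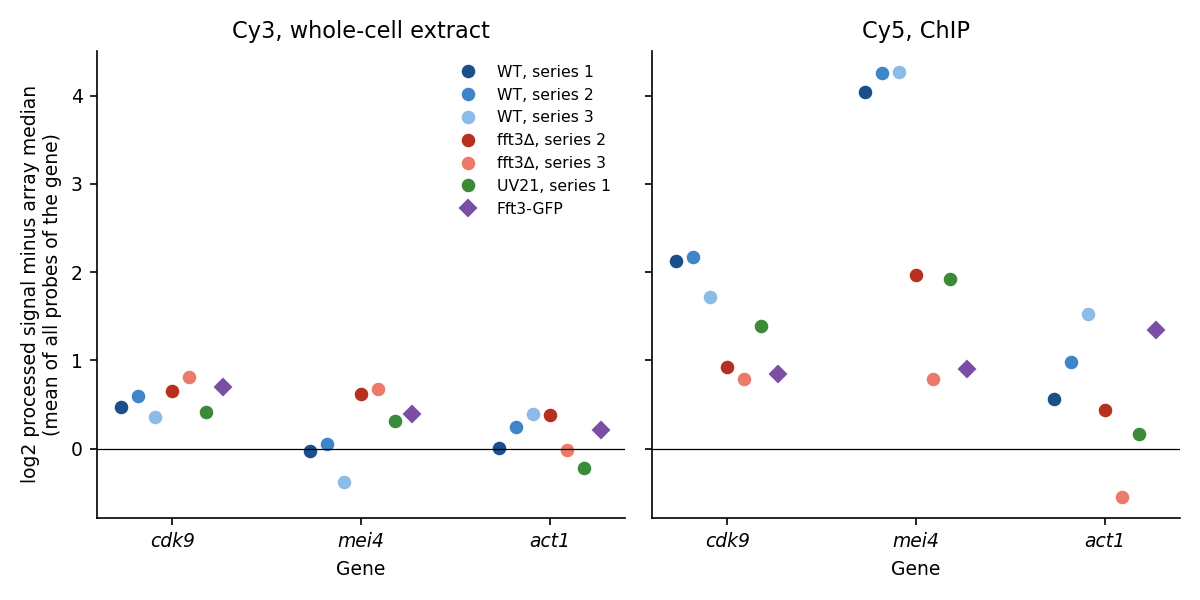
Log2 processed signal minus the array median, averaged over all probes of a gene (y), for Cy3 (left) and Cy5 (right) at cdk9, mei4 and act1 (x), 1 point per array. At mei4, Cy3 is -0.38 to 0.05 on WT H3K9me2 arrays, 0.62 and 0.67 on fft3∆ arrays and 0.39 on the Fft3-GFP array. Cy5 is 4.04 to 4.27 on WT H3K9me2 arrays and 1.97 and 0.78 on fft3∆ arrays.

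The remodeller itself gave a profile that was highest over act1 and not over mei4. On the single Fft3-GFP array act1 read 1.11, the 4th highest of 4713 genes. Its probes, from 1476600 to 1478100, read 0.75, 0.98, 1.05, 1.46, 1.25 and 1.23, a rise from the 3′ UTR into the coding region, and 4 of the 6 reached 1, as 0.869% of all tested probes did. The signal dropped to 0.75 at 1478400 and to 0.14 at 1478700, before mok12, which read -0.13 as a gene. Mei4 read 0.50, the 170th highest gene. Its probes rose from 0.20 at 1473900 to 0.90 at 1474800, the WT H3K9me2 peak in series 1 and 2, fell to 0.33 at 1475400 and rose again to 0.75 at 1476000. Cdk9 and wdr8 read 0.11 and -0.04. It has no replicate, an untagged control was not analysed here, and the cells were kept in the cold and fixed differently, so no test was made.

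Among 12 housekeeping genes, 8 read 0.5 or more with Fft3-GFP, as did 3.54% of all genes. The list's median was 0.58, against 0.00 for all genes. Act1 (1.11) was exceeded in it by tef103 (1.12), a translation elongation factor 1-alpha gene, and followed by pma1 (1.04), the plasma membrane proton pump. Among 10 Mmi1-target genes mei4 had the highest Fft3-GFP value, the 9 others lay between -0.10 and 0.22, and the list's median was 0.08.

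For H3K9me2, 5 of the 10 Mmi1 targets passed as lower in fft3∆ and none as higher, against 6.17% of all genes, and the list's median difference was -1.14 against -0.11 for all genes. Mei4 fell most. Ssm4, a component of dynactin, read 3.21, 3.38 and 3.68 in WT and 0.94 and 0.17 in fft3∆, and fell by 2.87. Mcp7, a meiotic recombination protein, read 2.80, 2.88 and 3.45 in WT and 0.70 and 0.48 in fft3∆, and fell by 2.45. In both, as in mei4, WT and fft3∆ arrays did not overlap. This was also so for rec8, crs1 and mug8, which did not pass, and for mok12, which differed by -0.10. Mug9 fell by 2.59 and num1 (also mcp5), the cortical anchor of dynein in meiosis, fell by 1.70. Without WT series 3 the adjusted p was 0.0678 for mug9 and 0.0771 for num1.

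The other 5 targets had little H3K9me2 in WT, with means of -0.05 to 0.44, and none passed. Their differences in fft3∆ were -0.57 for rec8, the meiotic cohesin subunit, -0.48 for mug8, -0.34 for the cyclin crs1, and -0.08 for both mug10 and the RNA-binding protein spo5. Hexamers were dense in rec8 too, with up to 6 sense copies within 300 bases, and in mug8 with up to 8, as many as in mei4.

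**Figure D5:**
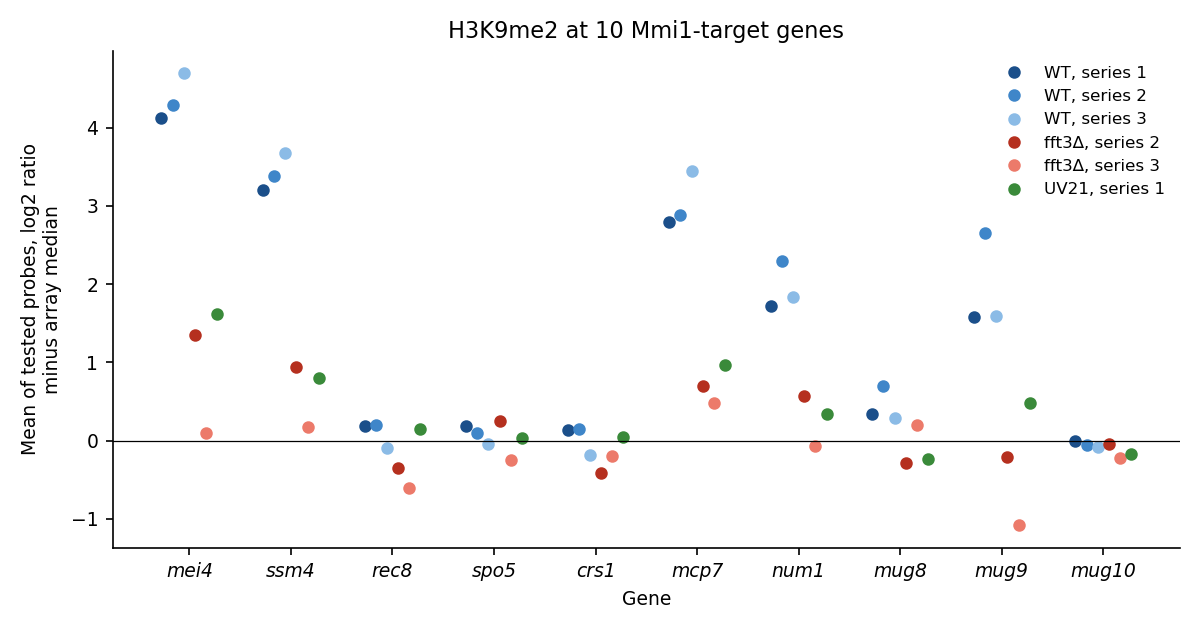
Mean log2 ratio over tested probes minus the array median (y) for 10 genes known as Mmi1 targets (x), 1 point per H3K9me2 array. Mei4, ssm4, mcp7, num1 and mug9 stand at 1.59 or higher on every WT array, and on the fft3∆ arrays they read 1.36 or lower.

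In UV21 none of the 10 targets passed and 6 had an unadjusted p under 0.05, all lower. The differences were -2.75 for mei4, -2.62 for ssm4, -2.07 for mcp7, -1.61 for num1, -1.46 for mug9 and -0.67 for mug8. The list's median was -1.07 against 0.02 for all genes, and 2.36% of all genes had an unadjusted p under 0.05 and were lower. The UV21 and fft3∆ contrasts share the WT arrays.

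Act1 was 1 of 2 housekeeping genes of 12 that passed as lower in fft3∆. The other was fba1, fructose-bisphosphate aldolase, which fell by 1.94 (adjusted p = 0.0405) from 0.02, 0.59 and 1.23 in WT to -0.82 and -1.83. The fba1 call was lost in 5 of 16 alternatives. The 10 others differed by -0.37 to 0.28, and the list's median was 0.07.

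The genes whose values over the 6 H3K9me2 arrays were most like those of mei4 were named by the root mean square difference, leaving out the stretch itself. They were SPAC869.01 (0.752), pfl9 (0.755), ssm4 (0.770), yox1 (0.841) and SPAC186.02C (0.953). Of these, 3 lie together near the right end of chromosome 1, SPAC869.01 from 5517000, pfl9 from 5523300 and SPAC186.02C from 5525400, and yox1, a transcriptional repressor of the cell cycle, lies at 1650000 on chromosome 2. Ssm4 was the one among them that is also in the Mmi1-target list. SPAC186.02C differed between the WT arrays by more than mei4 did, with 3.70, 2.81 and 6.11, where mei4 read 4.13, 4.29 and 4.70. The 3 genes most like act1 were pgt1 (0.146), spd1 (0.163) and SPBC8E4.05C (0.169), with WT means of 0.83, 0.86 and 0.98 and fft3∆ means of -0.13, 0.02 and -0.15.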

How the data were processed

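The scanner files of 7 arrays were used. Per the file headers, Agilent Feature Extraction was version 10.7.3.1 for fft3∆ series 2, 11.5.1.1 for both series 3 arrays and 12.0.3.1 for the others. The extraction protocol was numbered 1105 for both series 3 arrays and 1200 for the others, so a block for it sets series 3 apart. Per the file headers, the processed signal is a spot's intensity in 1 channel after background subtraction and a linear dye factor. The software's own ratio column is log10 of red over green, per the file headers. The deposited value table holds a linear ratio, processed Cy5 divided by processed Cy3, as found by comparison with the scanner files (correlation 1 on every array). Median signal was 19.7 to 219 times the local background in Cy3 and 22.8 to 100.3 times in Cy5. On WT series 3, 12.3% of spots were non-uniform and 3.79% saturated. How far signal, spot quality or the number of arrays limits precision was not tested.

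Log2 ratios were centred on each array's median, with no loess or quantile step. Control spots, non-uniform spots and probes whose Cy3 failed the software's background test on at least 1 of the 6 H3K9me2 arrays were left out, which kept 33704 of 41551 probes. Probes, genes (mean of at least 2 tested probes, 4713 genes) and 2 kb windows (at least 3) were each fitted with limma 3.58.1 (lmFit and eBayes, R 4.3.3, group as the only term, 6 arrays), with Benjamini-Hochberg adjustment over all probes or genes and a threshold of 0.05. On simulated data the gene fit recovered 84% of changes of 1 and 100% of changes of 3.5 on the log2 scale, and the probe fit 4% and 99%, for fft3∆ against WT. It also called 10 genes and 9 probes that had no change. The simulated noise was normal, independent and of equal spread in all groups, without array, series or protocol effects. Recovery on the real arrays was not tested.

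The genes named are mei4, act1, the other genes of the stretch, 10 Mmi1 targets, 12 housekeeping genes and the genes most like mei4 (5) and act1 (3). The members and lists were chosen with earlier results of these data known. Alternatives covered background correction, scaling, filters, the software's log ratio, the deposited table, blocks for extraction protocol and series, and leaving out each WT and fft3∆ array. The files hold no mean spot signals, so normexp (offset 50) was run on spot medians.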

Additional observations from a re-analysis of the deposited data

How the results depend on the processing

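The fall of mei4 in fft3∆ kept its direction under all 16 alternatives and passed in all that kept both fft3∆ arrays. For fits that leave 1 fft3∆ array, only the size of the fall is given, since their spread comes from the WT arrays alone. The deposited table and the fit on WT and fft3∆ arrays alone repeated the main values, so they are not separate checks. The direction at act1 was kept under all 16 as well, though act1 did not pass when any 1 WT array was left out (adjusted p = 0.0613 to 0.0805). Leaving out 1 array moved the act1 difference between -1.33 and -0.95, the difference of UV21 from WT at mei4 between -2.87 and -2.59, and that of fft3∆ from UV21 between -1.52 and -0.27 at mei4 and between -0.93 and -0.54 at act1. Between WT and fft3∆ arrays of a series, deviations from the group means correlated by 0.0132 in series 2 and 0.0113 in series 3 over 33704 probes. The deviations of the 2 fft3∆ arrays are equal and opposite, so these values are not separate checks. Whether arrays of a series share effects at this stretch was not tested. With series as a replicate block the mei4 difference was -3.77 in fft3∆ and -2.51 in UV21, which then passed. Counts moved more. The tested probes of the stretch that passed as lower numbered 0 with the pericentromeric means set equal and 0 to 19 over the fits without 1 array, and the windows 2 to 4. Genes passing as lower numbered 291, or 167 with the pericentromeric means set equal, 189 with the extraction protocol as a block and 68 to 681 without 1 array. Genes passing as higher numbered 3, or 7 with normexp, 1 with the pericentromeric means set equal, the protocol block or the median of the probes, and 0 to 100 without 1 array. Over the fits without 1 array, the highest counts of probes and genes came from the fit without fft3∆ series 2. That fit takes its spread from the WT arrays alone, so these upper ends are not comparable with the main counts. Without 1 WT array, 0 to 8 probes of the stretch and 68 to 125 genes passed as lower, and 0 genes as higher. The causes were not tested.

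Signs changed only for differences near 0 that had not passed. These were UV21 against WT at wdr8 (0.035 with the median of the probes, -0.079 to 0.084 without 1 array), and fft3∆ against WT at spo5 (-0.33 to 0.17) and mug10 (-0.17 to 0.0083), both without 1 array. The island's edges depended on the threshold. At 2 in place of 1 the left edge was 1473300 on WT series 1 and 2, 1473000 on WT series 3 and 1473900 on UV21, the right edge on WT series 3 was 1476300, and fft3∆ series 2 had no island. At 0.5 no left edge was found on any WT array or on UV21, since the walk reached the first probes of the stretch (1470000 on WT series 1, WT series 2 and UV21, 1470300 on WT series 3), and the right edge on WT series 2 was 1479900. With normexp the left edge was 1473000 on WT series 3 and 1473600 on UV21, and the right edge on WT series 3 was 1476600. Islands also appeared on the arrays that had none. On Fft3-GFP an island ran from 1476000 to 1477800 with normexp and from 1474800 to 1477800 at 0.5. On fft3∆ series 3 it was 1475400 alone with the pericentromeric means set equal, and 1475100 to 1475400 at 0.5. With non-uniform spots kept, the left edge on WT series 3 was 1472700. The right edge was then 1477200 on WT series 2 and 1477500 on WT series 3. When 1 probe ended the walk, the left edge was 1471800 on WT series 3 and 1473600 on UV21. With the pericentromeric means set equal, the left edge on UV21 was 1473900.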
